A study of Homo sapiens with 44 samples.

Results

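The interferon chemokine genes CXCL9, CXCL10 and CXCL11 lie side by side on chromosome 4, and chromatin accessibility was described at every peak that the deposited table names after them. The rule took each row whose name gives 1 of these genes, and it found 17 of 407383 peaks, of which 1 was named CXCL9, 6 CXCL10 and 10 CXCL11. All 17 passed the filter on low values. Accessibility was measured by ATAC-seq, a method that sequences the DNA a transposase can reach, in Ccd18-Co cells, which are a line of human colon fibroblasts. The 44 libraries formed 11 groups of 4 replicates. The comparison group was unstimulated, and each other group received 1 cytokine, namely IFNγ, IFNα, TNF, OSM (oncostatin M), IL-6, IL-13, IL-17A, IL-22 or TGF-β1 at 10 ng/ml, or IL-1β at 0.1 ng/ml. Doses are those of the labels, and a figure legend of the study gives a lower dose of IL-1β. All cells were a single line, were serum-starved for 72 h and were kept with or without cytokine for 24 h. The sources do not say that replicates were separate cultures, so p-values measure the spread between these libraries, which may be technical.

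CXCL9, CXCL10 and CXCL11 encode small secreted proteins that bind the receptor CXCR3 and draw activated T cells and natural killer cells into tissue. Interferons switch these genes on through the JAK kinases and transcription factors they activate. Known DNA elements of interferon-responsive genes are GAS elements and interferon-stimulated response elements (ISREs). TNF and IL-1β signal through NF-κB, for which the CXCL10 promoter is a textbook target. The comparisons ask where each cytokine opened chromatin at these genes in fibroblasts.

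The positions of the peaks matter for what follows. In GENCODE v44 (hg38) all 3 genes lie on the minus strand, with CXCL9 at chr4:76001275-76007509, CXCL10 at chr4:76021118-76023497 and CXCL11 at chr4:76033682-76041415. The gene ART3 on the plus strand, at chr4:76011184-76114048, overlaps both CXCL10 and CXCL11. Most peaks that the table classes as intronic therefore lie in ART3 introns. The CXCL10 start peak, chr4:76023341-76023841, covered the CXCL10 start with untranslated and coding sequence of its first exon, and is classed as promoter. The CXCL11 start peak, chr4:76035947-76036447, covered the start of the main CXCL11 transcript with untranslated and coding sequence, although the table classes it as exonic. The CXCL10 upstream peak, chr4:76028327-76028827, was centred 5.08 kb upstream of the CXCL10 start in an ART3 intron. The only peak named CXCL9, chr4:76002162-76002662, lay over untranslated sequence 5.1 kb downstream of the CXCL9 start, and no row named after the 3 genes covered that start. Of the 10 CXCL11 peaks, 7 lay from 17.84 to 54.35 kb upstream of the main CXCL11 start, inside ART3.

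The 250 bases before each start show which of 4 motifs stand there, and are printed 5′ to 3′ on the minus strand from RefSeq (GRCh38.p14), where all 3 genes had an entry. The CXCL10 and CXCL11 windows lie inside the start peaks, while no member peak covered the CXCL9 window. Capitals mark matches on either strand to the ISRE core (GAAANNGAAA), the GAS element (TTCNNNGAA), the AP-1 element (TGANTCA) and the NF-κB consensus, and no matches in these windows overlapped. The windows are chr4:76007510-76007759 for CXCL9, chr4:76023498-76023747 for CXCL10 and chr4:76036071-76036320 for CXCL11.
CXCL9: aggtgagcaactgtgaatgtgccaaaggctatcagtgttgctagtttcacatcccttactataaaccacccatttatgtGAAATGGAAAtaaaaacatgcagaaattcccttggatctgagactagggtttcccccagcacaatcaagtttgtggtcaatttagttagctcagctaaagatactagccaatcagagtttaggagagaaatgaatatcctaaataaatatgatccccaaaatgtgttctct
CXCL10: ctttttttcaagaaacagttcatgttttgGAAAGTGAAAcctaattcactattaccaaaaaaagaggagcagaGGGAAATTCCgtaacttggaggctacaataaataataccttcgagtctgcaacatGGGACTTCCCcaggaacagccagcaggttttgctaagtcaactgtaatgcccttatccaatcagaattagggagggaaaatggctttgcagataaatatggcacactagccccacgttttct
CXCL11: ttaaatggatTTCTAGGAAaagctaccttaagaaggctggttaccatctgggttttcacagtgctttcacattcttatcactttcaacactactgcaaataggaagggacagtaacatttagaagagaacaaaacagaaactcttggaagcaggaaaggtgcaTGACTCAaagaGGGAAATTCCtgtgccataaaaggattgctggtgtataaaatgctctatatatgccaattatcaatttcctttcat

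In the CXCL10 window the capitals are, in order, an ISRE core from -221 to -212 and NF-κB matches from -177 to -168 and from -122 to -113, counted from the start. In the CXCL11 window they are a GAS match from -240 to -232, an AP-1 match from -87 to -81 and an NF-κB match from -76 to -67. The same NF-κB letters, GGGAAATTCC, stand in both windows. The CXCL9 window held an ISRE core from -171 to -162 and none of the other motifs. Among all 35116 promoters of the same RefSeq table (250 bases before to 50 after the start), 3.57% held an ISRE core, 7.66% a GAS match, 11.3% an NF-κB match and 7.71% an AP-1 match. Over that longer stretch CXCL11 held a further GAS match, from 18 to 26, which is not printed.

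The CXCL10 upstream peak is printed over chr4:76028352-76028621 (hg38, minus strand), since it held more of the interferon motifs than any other member. The ART3-named peak upstream of CXCL9, centred 100 bases from an annotated ART3 start, is printed over chr4:76011872-76012001 (hg38, minus strand) around its single ISRE core.
CXCL10 upstream peak: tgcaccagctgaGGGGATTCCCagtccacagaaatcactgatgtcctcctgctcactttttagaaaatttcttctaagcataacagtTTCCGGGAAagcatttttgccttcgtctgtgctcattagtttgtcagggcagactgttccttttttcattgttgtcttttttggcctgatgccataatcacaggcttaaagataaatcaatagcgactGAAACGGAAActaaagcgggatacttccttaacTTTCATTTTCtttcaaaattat
Peak upstream of CXCL9: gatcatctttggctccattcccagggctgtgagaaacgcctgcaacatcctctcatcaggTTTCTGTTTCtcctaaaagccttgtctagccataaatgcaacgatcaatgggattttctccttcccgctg

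In the CXCL10 upstream peak the capitals are an NF-κB match, a GAS match and ISRE cores on both strands, in that order, and a further GAS match lay at the edge of the peak. Over whole peaks, the ISRE core occurred in 3 of the 17 members and in 9.13% of all peaks. GAS matches occurred in 6 members and 17.2% of all peaks, NF-κB matches in 4 members and 13.0%, and AP-1 matches in 7 members and 25.7%. The CXCL11 start peak held no ISRE core of these letters. A match is a description of the letters and not evidence of binding.

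Libraries held 148.8 to 823.1 Mb of coverage over all peaks, with 414.1 ± 81.6 Mb (SD, n = 4) in the unstimulated group. The shallowest was the library labelled IL-6 replicate 4. Levels are coverage per Mb of library total after a composition correction, and coverage of 75 bases, about 1 read, was worth 0.0912 to 0.505 per Mb. Promoter peaks of 7 of 10 fibroblast markers were in the table, among them COL1A1 at 24.9 per Mb, while PDGFRA, THY1 and DCN had none and LUM was at 0.548. Of other lineages, a promoter peak was listed for CD14 alone among 7 leukocyte markers (1.59 per Mb), KRT8 alone among 5 epithelial markers (4.55), and all 5 endothelial markers (0.389 to 1.55). The part of other cells in the results was not tested.

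The CXCL10 start rose with both interferons, with TNF and with IL-1β, and had the largest log2 change of the 17 peaks with each of these except IFNγ. Its level in the 4 unstimulated libraries was 1.226, 1.679, 0.2277 and 0.7644 per Mb, which is 1 to 8.85 reads. With IFNα the levels were 10.13, 8.847, 13.28 and 11.13 per Mb. With TNF they were 7.72, 8.833, 12.04 and 9.186 per Mb. Every IFNα and TNF library stood above every unstimulated library. With IFNγ the levels were 6.678, 7.525, 6.41 and 7.971 per Mb, and with IL-1β 3.572, 4.371, 3.641 and 4.544 per Mb. These also lay wholly above the unstimulated range, and the IL-1β libraries lay wholly below those of the other 3 cytokines.

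On the log2(level + 0.5) scale the rise at the CXCL10 start was 3.04 ± 0.32 (SE) with IFNα, from a mean of 0.974 to 10.85 per Mb (11.1-fold, limma with Benjamini-Hochberg adjustment over 407176 peaks, adjusted p = 1.42e-14). It was 2.85 with TNF (9.70-fold, limma adjusted p = 3.92e-14), 2.48 with IFNγ (7.33-fold, limma adjusted p = 1.5e-10) and 1.73 with IL-1β (4.14-fold, limma adjusted p = 1.77e-05). The added 0.5 makes log2 changes of low peaks smaller than the ratios of the means. The other 6 cytokines left the peak between 0.648 per Mb (IL-6) and 1.35 per Mb (IL-17A), with log2 changes from -0.38 to 0.41 and none past the test. In the order of group means, IFNα overlapped TNF and TNF overlapped IFNγ in range, IL-1β stood apart from both its neighbours, and the remaining groups overlapped one another from IL-17A down to IL-6.

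The CXCL11 start rose with both interferons and, less firmly, with TNF. Its unstimulated levels were 0.6633, 1.482, 0.2277 and 0.4636 per Mb. With IFNγ they were 6.628, 7.304, 7.839 and 5.968 per Mb, a tight group far above the unstimulated libraries. With IFNα they were 2.406, 7.267, 3.556 and 7.909 per Mb, so that replicates 1 and 3 had lower levels than replicates 2 and 4, and all 4 lay above the unstimulated range. With TNF they were 1.113, 2.233, 5.236 and 1.342 per Mb, where replicate 3 was high and 2 of the libraries lay inside the unstimulated range.

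The log2 change at the CXCL11 start was 2.71 ± 0.37 with IFNγ (9.78-fold, limma adjusted p = 3.73e-09), 2.22 with IFNα (7.45-fold, adjusted p = 1.51e-05) and 1.21 with TNF (3.50-fold, adjusted p = 0.0333). Without TNF replicate 3 the TNF change was 0.83 (limma adjusted p = 0.354), and the call was also lost without unstimulated replicate 1, 3 or 4 or TNF replicate 2 (limma adjusted p from 0.0627 to 0.192), and with a pseudocount of 0.1 (0.108). IL-1β libraries held 0.364 to 1.72 per Mb and the log2 change was 0.40 (limma adjusted p = 0.763, 95% interval -0.34 to 1.13). Levels with the remaining cytokines had means from 0.312 (OSM) to 1.36 per Mb (IL-6), and none of their changes passed the test.

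The CXCL10 upstream peak responded to the interferons, and most to IFNγ. Unstimulated libraries held 2.064, 1.386, 1.807 and 0.8779 per Mb. IFNγ libraries held 6.296, 6.25, 5.576 and 6.297 per Mb, above every other library in all groups. IFNα libraries held 2.666, 3.647, 4.433 and 4.754 per Mb, above the unstimulated range. TNF libraries held 2.06, 1.551, 4.786 and 2.84 per Mb and overlapped both. The rise was 1.74 ± 0.31 with IFNγ (3.98-fold, limma adjusted p = 1.29e-05) and 1.12 with IFNα (2.53-fold, adjusted p = 0.0422). The IFNα call was kept in 9 of 17 alternative fits, and without unstimulated replicate 4 its adjusted p was 0.22. With TNF the change was 0.65 (limma adjusted p = 0.31).

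**Figure D1:**
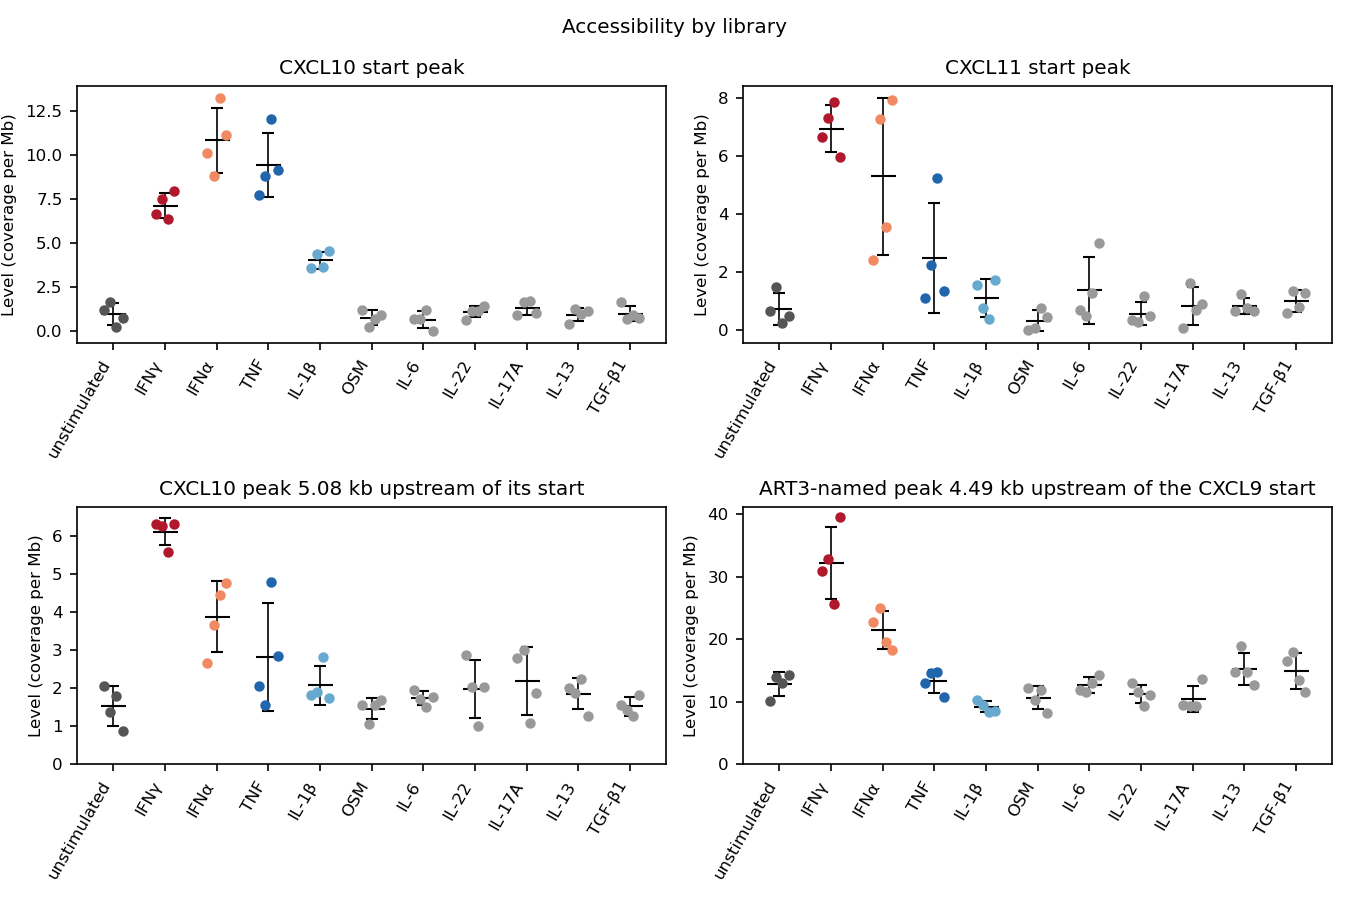
Level in each library (coverage per Mb, vertical axis) for the 11 groups at 4 peaks, with points for libraries and black bars for the mean ± SD (n = 4). The CXCL10 start is high with IFNγ, IFNα, TNF and IL-1β, while the peak upstream of CXCL10 is highest with IFNγ (5.576 to 6.297 per Mb).

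Across the 17 members, 3 peaks rose with IFNγ, where 1.48% of all peaks rose, and 3 with IFNα, where 0.513% did. TNF raised 2 members against 2.67% of all peaks, and IL-1β raised 1 against 1.72%. No member fell in these comparisons. The members raised by IFNγ and by IFNα were the same 3 peaks, namely the CXCL10 start, the CXCL11 start and the CXCL10 upstream peak. Those raised by TNF were the 2 starts, and the peak raised by IL-1β was the CXCL10 start. These comparisons share the 4 unstimulated libraries. The median log2 change over the 17 members was 0.67 with IFNγ against -0.01 over all tested peaks, 0.32 with IFNα against 0.01, 0.23 with TNF against -0.04 and 0.36 with IL-1β against 0.025.

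With OSM, IL-6, IL-22, IL-17A, IL-13 and TGF-β1, limma called 0 members. Over all peaks it called 2.85% with OSM, 3.51% with TGF-β1, 1.61% with IL-13, 0.107% with IL-6, 0.0398% with IL-17A and 0.0366% with IL-22 in either direction, so that a count of 0 among 17 lies near these shares. At an unadjusted p under 0.05 there was 1 member each with OSM, IL-13 and TGF-β1, and 0 with IL-6, IL-22 and IL-17A. The share of all peaks under that limit is not given here. The OSM member was the CXCL11 peak 38.56 kb upstream of the start (log2 change -0.79, limma adjusted p = 0.248). The IL-13 member was the CXCL11 peak 54.35 kb upstream (log2 change -0.70, limma adjusted p = 0.259), and the TGF-β1 member was the CXCL10 peak 5.98 kb upstream (log2 change 0.93, limma adjusted p = 0.167). For IL-6 the count was also 0 without the shallow replicate 4.

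**Figure D2:**
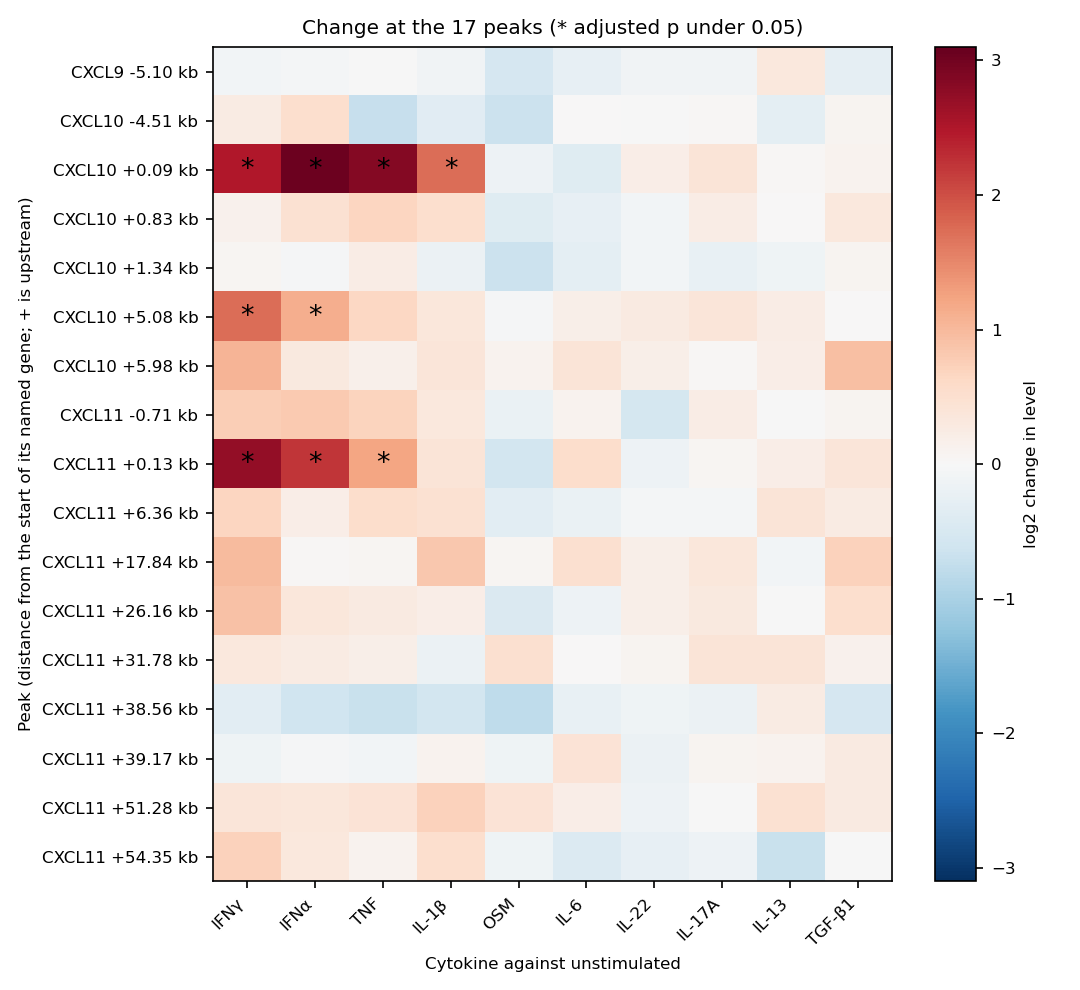
Log2 change in level against unstimulated (colour) for the 17 member peaks (rows, by distance from the start of the gene each is named after) and 10 cytokines (columns), with an asterisk where limma's adjusted p was under 0.05. Marks stand at 3 peaks only and in the first 4 columns.

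The 14 members called in no comparison fell into low and well covered peaks. The CXCL11 peaks 31.78, 51.28 and 54.35 kb upstream, all in ART3 introns, were open in unstimulated cells at 3.19, 3.20 and 3.40 per Mb. The peak 54.35 kb upstream held 5.88 per Mb with IFNγ (log2 change 0.71, limma adjusted p = 0.277) and no IFNγ library lay inside the unstimulated range. The peak 51.28 kb upstream held 5.50 per Mb with IL-1β (log2 change 0.72, limma adjusted p = 0.111). The peak 38.56 kb upstream, next to an internal ART3 start, had group means from 0.821 per Mb with OSM to 2.41 per Mb with IL-13.

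The remaining 10 members were near the limit of the coverage. Their mean levels over all libraries ran from 0.302 to 0.914 per Mb, and between 5 and 12 of the 44 libraries had no coverage at each. Both promoter-class peaks of CXCL10 that lie 0.83 and 1.34 kb upstream of the start were in this group, with highest means of 0.871 and 0.538 per Mb, in each case with TNF. The promoter-class peak of CXCL11, 6.36 kb upstream of the main start and 1017 bases from the start of a longer transcript, had its highest mean with IFNγ, at 0.809 per Mb. With IFNγ, the CXCL10 peak 5.98 kb upstream had 0.943 per Mb against 0.194 (log2 change 1.06, limma adjusted p = 0.161), the CXCL11 peak 17.84 kb upstream had 1.10 against 0.315 (0.98, adjusted p = 0.287), and the CXCL11 peak 26.16 kb upstream had 0.989 against 0.291 (0.91, adjusted p = 0.302).

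CXCL9 had no measurable response in its only named peak. That peak held 0.495 ± 0.342 per Mb in unstimulated libraries and 0.475 ± 0.470 with IFNγ (n = 4 each), which is at most 4.95 and 9.52 reads per library. The log2 change was -0.09 with IFNγ (95% interval -0.84 to 0.66, limma adjusted p = 0.977) and -0.07 with IFNα. Its highest group mean was 0.738 per Mb with IL-13, and 7 of 44 libraries had no coverage.

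The peak next to CXCL9 that did respond is named ART3 in the table, and is not a member. It lay at chr4:76011747-76012247, 4.49 kb upstream of the CXCL9 start and over untranslated sequence of ART3, a gene for an ADP-ribosyltransferase family protein. Its centre lay 100 bases from an annotated ART3 start, so it may belong to either gene, which was not tested. Unstimulated libraries held 10.08, 13.97, 12.97 and 14.25 per Mb. IFNγ libraries held 30.9, 32.85, 25.59 and 39.48 per Mb, and IFNα libraries 22.82, 25.07, 19.54 and 18.34 per Mb. The 3 groups did not overlap. The rise was 1.29 ± 0.16 with IFNγ (2.51-fold, limma adjusted p = 1.17e-11) and 0.72 with IFNα (1.67-fold, limma adjusted p = 0.00243). TNF libraries held 10.75 to 14.7 per Mb, and the log2 change was 0.05 (limma adjusted p = 0.944, 95% interval -0.26 to 0.36). IL-1β libraries held 8.454 to 10.29 per Mb (log2 change -0.45, limma adjusted p = 0.0951).

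Of the 11 other tested peaks within 50 kb of the members, 2 more were called in some comparison. The ART3-named peak 5.1 kb upstream of the CXCL9 start was higher with IFNγ than with TNF (14.36 against 8.61 per Mb, log2 difference 0.72, limma adjusted p = 0.00119). Its centre lay 516 bases from an annotated ART3 start. A peak named LOC101928809, 22.19 kb downstream of the CXCL9 start in an intron of SDAD1, rose with TNF (4.38 to 10.53 per Mb, log2 change 1.20, adjusted p = 2.39e-05), OSM (0.94, adjusted p = 0.00379) and IL-1β (0.72, adjusted p = 0.0423). The IL-1β call was lost without unstimulated replicate 1, 3 or 4 or IL-1β replicate 1, 2 or 3 (limma adjusted p from 0.0525 to 0.194) and with a pseudocount of 0.1 (0.0578). OSM raised 1.55% of all peaks. With IFNγ the LOC101928809 peak was at 4.26 per Mb, lower than with TNF by a log2 difference of -1.24 (limma adjusted p = 6.8e-06), and 3.11% of all peaks were lower with IFNγ than with TNF.

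**Figure D3:**
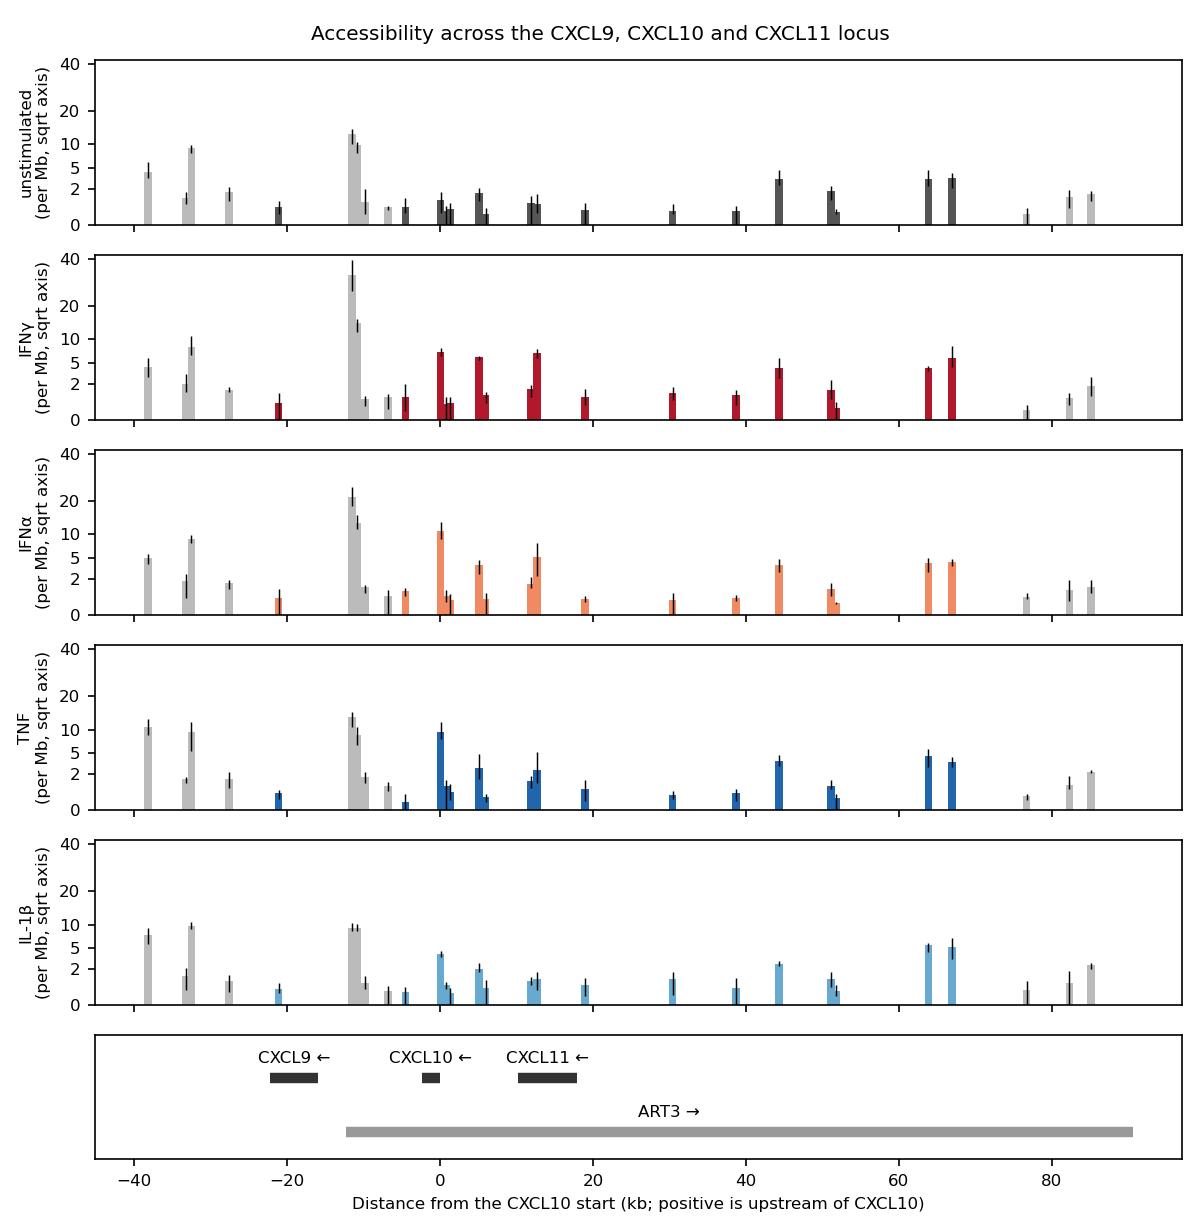
Mean level per group (bars, coverage per Mb on a square-root axis starting at 0, lines from the lowest to the highest of 4 libraries) against distance from the CXCL10 start in kb, with genes drawn to scale below and member peaks in colour, other peaks in grey. The grey peak upstream of CXCL9 lies near an ART3 start. It reaches 32.21 per Mb with IFNγ and 13.28 with TNF, while the CXCL10 start is at 7.146 and 9.445.

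The interferons were compared directly, since IFNγ and IFNα use overlapping signalling proteins. Limma called 0 of 17 members between them. Over all 407176 tested peaks it called 4783 in either direction, of which 3573 (0.878% of all peaks) were higher with IFNγ. A count of 0 among 17 lies near this share. At an unadjusted p under 0.05 there were 3 members, and the share of all peaks under that limit is not given here. At the CXCL10 start IFNγ was below IFNα by a log2 difference of -0.56 ± 0.32 (limma adjusted p = 0.614, 95% interval -1.18 to 0.06), although the 2 groups did not overlap. At the CXCL10 upstream peak IFNγ was above IFNα by 0.62 (limma adjusted p = 0.512, interval 0.01 to 1.22), again with no overlap. At the CXCL11 start the difference was 0.49 (limma adjusted p = 0.774, interval -0.24 to 1.22) and the groups overlapped. The ART3-named peak 4.49 kb upstream of CXCL9 was called higher with IFNγ (log2 difference 0.57, limma adjusted p = 0.0326). That call was lost without IFNγ replicate 1, 2 or 4 or IFNα replicate 1, 3 or 4 (limma adjusted p from 0.0519 to 0.249) and with a pseudocount of 0.1 (0.0552).

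Between IFNγ and TNF, 2 members were higher with IFNγ, against 3.24% of all peaks. These were the CXCL11 start, with 6.94 against 2.48 per Mb (log2 difference 1.50, limma adjusted p = 0.00232), and the CXCL10 upstream peak, with 6.11 against 2.81 per Mb (1.09, adjusted p = 0.0109). The CXCL11 start call was lost with a pseudocount of 0.1 (log2 difference 1.70, limma adjusted p = 0.0734). That of the upstream peak was lost without TNF replicate 1 or 2 (limma adjusted p of 0.054 and 0.107). The CXCL10 start did not pass in this comparison (log2 difference -0.37, limma adjusted p = 0.683, interval -0.99 to 0.26). The ART3-named peak 4.49 kb upstream of CXCL9 differed by 1.24 (limma adjusted p = 1.86e-11).

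To set the peaks against each other within a library, the level of each was divided by that of the CXCL10 start in the same library. The comparison was chosen after these levels had been seen, so the exact tests below are descriptions and no independent support for the ranges. The CXCL10 upstream peak reached 79.0 to 94.28% of the CXCL10 start in the IFNγ libraries. It reached 26.32 to 42.71% in the IFNα libraries and 17.56 to 39.75% in the TNF libraries, so IFNγ stood apart from both. The CXCL10 start itself averaged 7.146 per Mb with IFNγ, 10.85 with IFNα and 9.445 with TNF. A higher ratio with IFNγ thus partly reflects a lower CXCL10 start. The CXCL11 start reached 74.87 to 122.3% with IFNγ, 23.75 to 82.14% with IFNα and 14.42 to 43.49% with TNF. In exact two-sided permutation tests on the log2 ratio, with 0.5 per Mb added to both levels, IFNγ against IFNα and against TNF at the upstream peak, and IFNγ against TNF at the CXCL11 start, each gave p = 0.0286, the smallest that 4 against 4 libraries allow. Adjusted over all 6 such exact tests these became 0.0571 and did not pass. IFNγ against IFNα at the CXCL11 start gave an exact p = 0.0571 (adjusted 0.0857), and IFNα against TNF gave 0.286 and 0.2 at the 2 peaks (adjusted 0.286 and 0.24). On the plain ratios, in which the scaling between libraries cancels, the exact p-values for IFNγ were the same, and those for IFNα against TNF were 0.257 and 0.143 (adjusted 0.257 and 0.171).

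**Figure D4:**
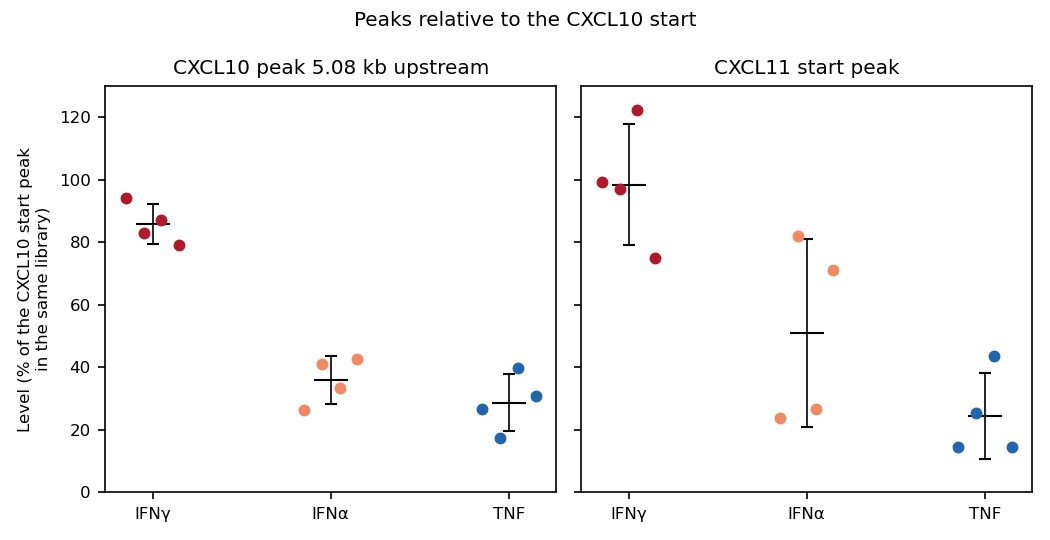
Level of the CXCL10 upstream peak (left) and the CXCL11 start peak (right) as a percent of the CXCL10 start peak in the same library, for the IFNγ, IFNα and TNF groups, with points for libraries and black bars for the mean ± SD (n = 4). At the upstream peak the lowest IFNγ library is at 79.0% and the highest library of the other groups at 42.71%.

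Likeness of pattern was measured as Pearson's correlation over the 11 group means, against 21649 promoter-class peaks of at least 1 per Mb. These correlations describe means of the same libraries and carry no test. The peaks most like the CXCL10 start were at ZNF207, APOBEC3B and INSIG1 (each r = 0.939), C17orf49 (r = 0.912) and BIRC2 (r = 0.904). APOBEC3B encodes a cytidine deaminase and BIRC2 an inhibitor of apoptosis in the TNF receptor complex. A correlation does not weigh the size of a change. At these peaks the log2 change ran from 0.27 (BIRC2) to 1.62 (ZNF207) with IFNγ. With TNF it ran from 0.30 (INSIG1) to 1.22 (ZNF207), and all these values lay below those of the CXCL10 start. For the CXCL11 start, which was added after its levels were seen because it is classed as exonic, they were at LOC100506321 (r = 0.946), PSMB8 (r = 0.925), an immunoproteasome subunit, BST2 (r = 0.909), an antiviral membrane protein, IFIT1 (r = 0.906), an antiviral RNA-binding protein, and RELA (r = 0.895), an NF-κB subunit. With IFNγ the log2 change at the peaks most like the CXCL11 start ran from 0.63 (RELA) to 3.74 (LOC100506321). This RELA peak is chr11:65663638-65664138, and the RELA promoter peak read among the NF-κB genes below is another. For the sparse promoter-class peak of CXCL11 the first was TNIP1 (r = 0.930), and for the CXCL9 peak GNG12-AS1 (r = 0.925), with means of a few reads behind both.

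The promoters of other genes in these pathways were read in the same fits. Over 1 promoter peak for each of 16765 genes, chosen by the same rule, 2.27% rose with IFNγ, 1.24% with IFNα, 2.19% with TNF and 1.66% with IL-1β, and the counts below stand beside these shares. With OSM 3.19% rose, with IL-13 1.38%, with IL-22 0.418%, with IL-6 0.31% and with IL-17A 0.101%. Of the same promoters 5.77% fell with TGF-β1, 1.44% with TNF and 0.608% with IL-13. The median promoter change with TGF-β1 was -0.091, so falls with it were common among promoters. Of 17 listed interferon signalling genes 16 had a tested promoter peak, and 4 of these rose with IFNγ. They were SOCS1, a feedback inhibitor of JAK kinases (log2 change 0.63, adjusted p = 0.00414), JAK1 (0.63, adjusted p = 0.0172), IRF1, an interferon-induced transcription factor (0.58, adjusted p = 8.34e-05), and IRF2 (0.53, adjusted p = 0.0203). No promoter of the list was called with IFNα or IL-1β, and with TNF the kinase gene TYK2 was (0.40, adjusted p = 0.00765). Calls were lost for SOCS1 without unstimulated replicate 2 (limma adjusted p = 0.0863), for JAK1 without unstimulated replicate 3 or IFNγ replicate 2 or 4 (0.0568 to 0.307), for IRF2 without unstimulated replicate 1 or 2 or IFNγ replicate 1 (0.0777 to 0.178), and for TYK2 without unstimulated replicate 2 or TNF replicate 1 (0.129 and 0.0868). With IFNγ 2 to 5 of the 16 were called over the alternatives, with 2 left without unstimulated replicate 2. With TNF the count was 2 without unstimulated replicate 1, and with IL-1β it was 1 without IL-1β replicate 1. With the other 6 cytokines, JAK1 was called with each except TGF-β1 (0.59 to 0.93), so its call was not limited to IFNγ. All these comparisons share the 4 unstimulated libraries and are not independent. Whether the level of those libraries at this peak set the JAK1 calls was not tested. SOCS1 rose with IL-13 (0.59, limma adjusted p = 0.0127) and SOCS3 with OSM (0.91, limma adjusted p = 1.75e-07), while STAT2, IRF2 and IRF7 fell with TGF-β1 (-0.25, -0.50 and -0.47). The SOCS3 call was kept in all 17 alternative fits. Leaving out 1 library ended each of the other calls with these 6 cytokines, for JAK1 without OSM replicate 2 or 3, IL-6 replicate 4, IL-22 replicate 4, IL-17A replicate 1, 2 or 3, IL-13 replicate 2 or 3 or unstimulated replicate 1, 3 or 4 (OSM and IL-13) or 2 (IL-13) (limma adjusted p from 0.051 to 0.394), and for SOCS1 without IL-13 replicate 3 or unstimulated replicate 2 (0.0745 and 0.137). The TGF-β1 calls were lost without TGF-β1 replicate 4 (limma adjusted p from 0.0699 to 0.274) or unstimulated replicate 3 (0.105 to 0.152), for 1 or 2 of the 3 genes without unstimulated replicate 1, 2 or 4 or TGF-β1 replicate 2 or 3, and with loess normalization, where STAT2 was at -0.01. The list's median change was 0.23 with IFNγ and 0.28 with IFNα, against 0.023 and 0.058 over the promoter peaks of the 16765 genes. Over all peaks the medians were -0.01 and 0.01. Of 6 NF-κB genes, NFKB1 (1.04, adjusted p = 0.000288), NFKBIA (0.82, adjusted p = 2.42e-05) and TNFAIP3 (0.81, adjusted p = 8.99e-05) rose with TNF, RELA rose with IFNγ (0.55, adjusted p = 0.022), and none was called with IFNα or IL-1β. The RELA call was lost without unstimulated replicate 1 or IFNγ replicate 1 or 2 (limma adjusted p from 0.0653 to 0.378).

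The other CXC chemokine genes, most of which attract neutrophils through CXCR1 and CXCR2, were read in the same way. Of 10 listed 9 had a promoter peak, and 5 rose with TNF, namely CXCL8 (log2 change 3.12, limma adjusted p = 1.56e-18), CXCL1, CXCL6, CXCL5 and CXCL3 (0.83 to 1.49). CXCL12, which signals through CXCR4, fell with TNF by 0.81 (limma adjusted p = 0.0473). Its call was lost without unstimulated replicate 1 or 3 or TNF replicate 1, 2 or 3 (limma adjusted p from 0.0799 to 0.237), and that of CXCL5 without unstimulated replicate 4 or TNF replicate 1 (0.0521 and 0.0764). With IL-1β 5 rose, namely CXCL8 (2.60, limma adjusted p = 2.86e-13), CXCL1, CXCL6, CXCL3 and CXCL2, the last of which was lost without IL-1β replicate 4 (adjusted p = 0.062). With IFNγ only CXCL16, a CXCR6 ligand, rose among these 9 (1.16, limma adjusted p = 3.04e-05), and with IFNα none was called. Among the other 6 cytokines, CXCL8 fell with IL-13 (-1.30, limma adjusted p = 0.00309) and CXCL1 with TGF-β1 (-0.68, limma adjusted p = 0.00116), and both calls were kept in all 17 alternative fits. The list's median change was 0.83 with TNF and -0.01 with IFNγ, against -0.022 and 0.023 over the promoter peaks of the 16765 genes. At CXCL8 IFNγ libraries averaged 2.02 per Mb and unstimulated libraries 2.27, beside 7.15 and 0.974 at the CXCL10 start. Of the receptors and proteins that handle these chemokines (CXCR3, ACKR3, DPP4 and SDC4), all 4 had a promoter peak and none was called with IFNγ, IFNα, TNF or IL-1β. The peptidase gene DPP4 fell with IL-13 (-0.865, limma adjusted p = 0.0383), a call lost without unstimulated replicate 1, 2 or 4 or IL-13 replicate 1, 3 or 4 (limma adjusted p from 0.0854 to 0.161) and with a pseudocount of 0.1 (0.0735).

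**Figure D5:**
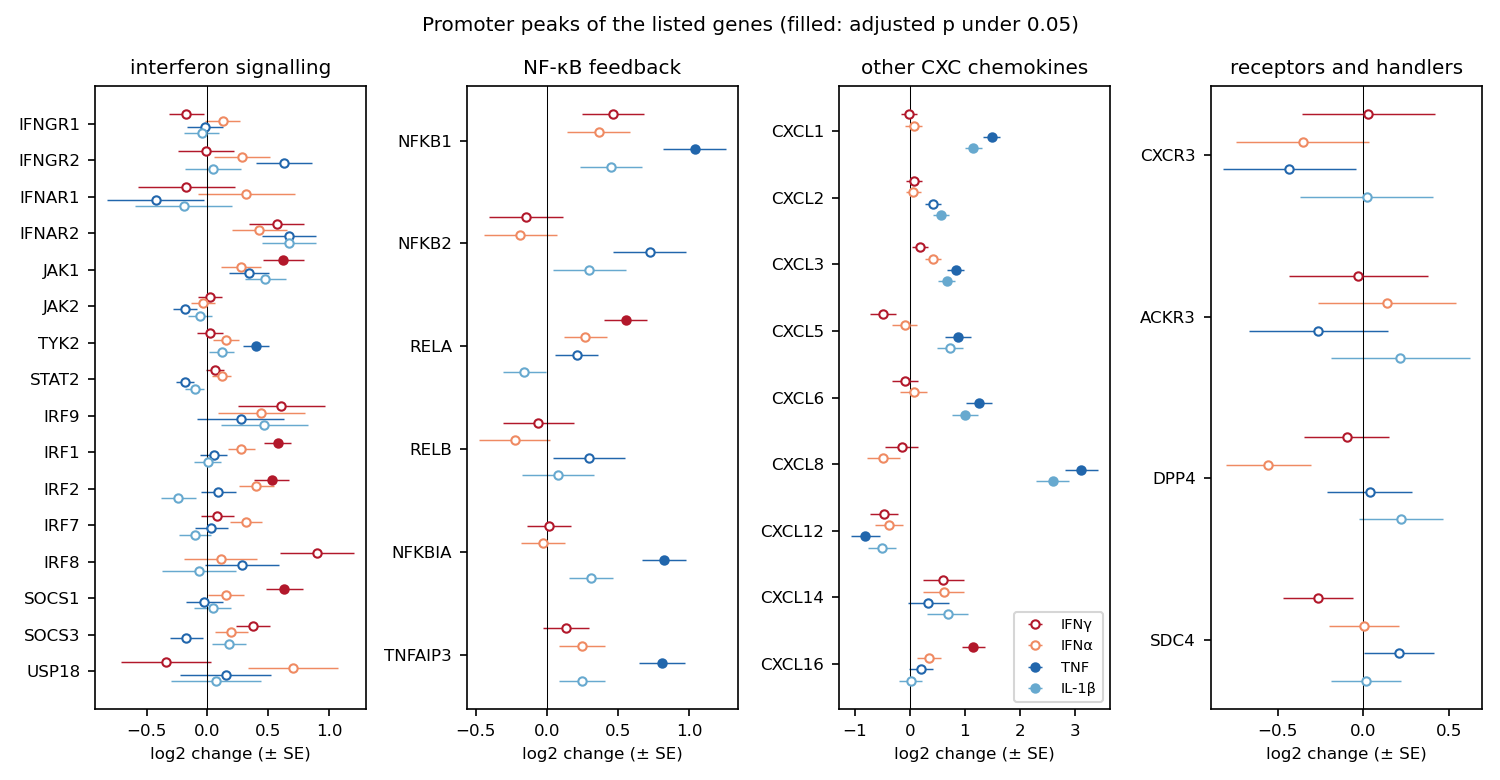
Log2 change against unstimulated (horizontal axis, ± SE) at the promoter peak of each listed gene with IFNγ, IFNα, TNF and IL-1β, filled where limma's adjusted p was under 0.05. CXCL8 reaches 3.12 with TNF, while the interferon signalling promoters called with IFNγ lie between 0.53 and 0.63.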

How the data were processed

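ATAC-seq libraries of Ccd18-Co cells were aligned to hg38 by the study with the ENCODE pipeline, which calls peaks with MACS2. The authors deposited read coverage summed over the bases of 407383 peaks of a fixed 500 bases from start to end, a signal that is not scaled for depth and is not a count of reads. How these peaks were chosen is not given in the sources used here. The 44 columns were matched to samples by library number.

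Coverage was divided by the library total in Mb and by a composition factor (trimmed mean of log ratios, trimming 30% of ratios and 5% of means), 0.5 was added and log2 taken. Peaks with a log2 mean level above -3 were tested (407176, with 207 left out) in limma 3.58.1 (R 4.3.3) with 1 coefficient per group, and adjusted p under 0.05 was called. The study's methods use a count model, which coverage does not allow, so a linear model on log2 levels was used. Adding 0.5 understates changes of low peaks. A fixed window and summed bases also blur narrow sites. The script was tested on simulated data. Every member peak was named. The members, gene lists and comparisons were chosen with earlier results of these data known. A listed gene was read at its promoter-class peak of highest mean level. A gene of the interferon signalling list is not reported here and was left out of that list. Annotation came from GENCODE v44, motifs from hg38. Same-numbered libraries did not deviate together (0 of 220 pairs with r over 0.1), so numbers were not used as pairs. Alternatives were other scalings, pseudocounts and filters, fits of 2 groups, a replicate block and leaving out each library.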

Additional observations from a re-analysis of the deposited data

Results flagged for a closer look

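In 13 of 187 groups of 4 libraries at a member peak, the highest or lowest library stood far from the other 3 for their range. Chance gives about 1 in 20 for normally distributed values, which many of these groups are not. With OSM at the CXCL10 peak 1.34 kb upstream and at the CXCL11 promoter-class peak, the other libraries were all at 0. Any coverage is flagged there, so the 13 cannot be set against that rate. Most were at peaks of a few reads. At well covered peaks, IFNγ replicate 3 held 5.576 per Mb at the CXCL10 upstream peak and the other IFNγ libraries 6.25 to 6.297. IL-1β replicate 3 held 2.816 there, beside 1.734 to 1.906. The same library held 4.356 at the CXCL11 peak 51.28 kb upstream, beside 5.815 to 5.919. At the CXCL11 peak 38.56 kb upstream, TGF-β1 replicate 1 held 0.2348, beside 1.469 to 1.568.

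At the sparse CXCL10 peaks, the peak 4.51 kb downstream of the start held 1.152 per Mb in unstimulated replicate 4 and 0.3994 in TNF replicate 2, the peak 1.34 kb upstream 0.1251 in OSM replicate 4 and 0.838 in IL-17A replicate 2, and the peak 5.98 kb upstream 0.9446 in IL-17A replicate 3. At CXCL11, the promoter-class peak held 0.6675 in OSM replicate 2 and 1.032 in TGF-β1 replicate 4, and the peak 17.84 kb upstream 0.6801 in unstimulated replicate 3. The CXCL9 peak held 0.7924 in IL-1β replicate 4. Each of these was the highest of its group, with about 1 to 8.12 reads behind it.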

How the results depend on the processing

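No called peak changed direction in the alternatives run. The median change over all tested peaks lay near 0 and did change sign, from -0.03 to 0.009 with IFNγ, -0.05 to 0.04 with IFNα, -0.05 to 0.001 with TNF and -0.002 to 0.05 with IL-1β. Loess normalization moved it from -0.22 to 0.004 with OSM and from 0.15 to -0.01 with TGF-β1. The number of called members was 3 with IFNγ in every alternative and 2 to 3 with IFNα. The TNF count was 1 with a pseudocount of 0.1 and 1 to 2 when 1 library was left out. The IL-1β count was 2 when only peaks of at least 1 per Mb were tested, and 1 to 2 when 1 library was left out, where the CXCL11 peak 51.28 kb upstream was gained without unstimulated replicate 4. The count between IFNγ and TNF was 1 with a pseudocount of 0.1, where the CXCL11 start was lost, and 1 to 3 when 1 library was left out, gaining the CXCL10 peak 4.51 kb downstream without IFNγ replicate 2. In the fits with a replicate block the counts stayed at 3, 3, 2 and 1 for IFNγ, IFNα, TNF and IL-1β, and 2 between IFNγ and TNF. With library totals the IFNα rise at the CXCL10 upstream peak was 1.08 (limma adjusted p = 0.0574), and with a pseudocount of 0.1 it was 1.31 (0.0627). The called neighbouring peaks and the called promoters of listed genes were put through the same alternatives, a choice made after their values were seen. With a pseudocount of 0.1 the calls of JAK1 with IFNγ (limma adjusted p = 0.0711), OSM (0.0598), IL-6 (0.0501), IL-17A (0.0612) and IL-13 (0.0832) and CXCL12 with TNF (0.0589) were also lost. The STAT2 call with TGF-β1 was lost with that pseudocount (limma adjusted p = 0.0668) and with median-of-ratios scaling (0.0505), and was kept in 7 of 17 alternative fits. When only peaks of at least 1 per Mb were tested, 3 interferon signalling promoters were raised by TNF and 1 by IL-1β, and with loess normalization 1 was raised by IL-1β. The cause of these shifts was not tested. For the within-library ratios, leaving out a library was not run, so their dependence on single libraries was not tested. The 10 sparse members rest on few reads, and whether deeper libraries would change their calls was not tested.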
